A study of Mus musculus with 18 samples.

Results

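Prox1, Sox18, Nr2f2, Lyve1, Pdpn, Reln and Mmrn1 are 7 genes used to recognise lymphatic endothelial cells (LECs), chosen by symbol from the 23238 gene symbols of the count tables. The choice was made with earlier results of these data known. Each gene had 1 row in every table. RNA was measured in 18 libraries of cells sorted from the small intestine of adult C57BL/6J mice. Stromal cells of the intestine (IntSCs) were gated on the Tomato reporter, and LECs came from mice of the same 2 genotypes. The controls (WT) carried PDGFRb+-CreERT2 and the Tomato reporter with no floxed allele, and the mutants (KO) carried in addition Lats1f/f and Lats2 f/f. Both genotypes therefore carried the tamoxifen-inducible Cre, which acts in cells that use the Pdgfrb promoter. LECs were not its target. KO against WT LECs therefore compares LECs sorted from mutant and control mice, together with any other cells that their libraries held. There were 6 WT IntSC, 5 KO IntSC, 4 WT LEC and 3 KO LEC libraries. QuantSeq libraries were used, in which a read stands for the 3′ end of a transcript. CPM is the count of a gene scaled to counts per 1000000 reads of its library, with TMM factors over all 18 libraries.

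Total counts ranged from 5361250 to 10549233, and Rn45s, the ribosomal RNA precursor, took from 7.02% to 24.4% of them. The targeted genes did not check the labels. Lats1 averaged 17.3 ± 10.2 CPM over the 6 WT IntSC libraries and 15.9 ± 3.55 CPM over the 5 IntSC libraries labelled KO (SD), and Lats2 72.0 ± 23.7 and 113 ± 20.9 CPM. Neither gene passed edgeR's quasi-likelihood test (adjusted p = 0.987 and 0.252), and 3′ reads can still be counted from a transcript that has lost internal exons. Every direction from KO below therefore refers to the libraries labelled KO. The LEC label was checked against 18 other lymphatic genes, a list chosen with earlier results of these data known. In WT 17 were tested, of which 13 were higher and 0 lower in LECs than in IntSCs. Over all genes tested 10.3% were higher and 12.3% lower. In KO 18 were tested, with 13 higher and 0 lower, against 9.11% and 16.8% of all genes. All 10 stromal markers were lower in LECs in both genotypes. Some libraries stood apart. The summed stromal markers reached 2421 CPM in WT LEC 1 and between 548 and 901 CPM in the other LEC libraries. WT IntSC 3 and KO IntSC 4 held the most reads of Lyve1, Reln and Mmrn1 in their groups. In sorted bulk samples, fewer cells of a type and less RNA per cell cannot be told apart.

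LECs line the lymphatic vessels, and in the intestinal villus they form the lacteal, which takes up dietary fat. Their identity rests on a small circuit of transcription factors. SOX18, a SOX family factor, and COUP-TFII, the nuclear receptor encoded by Nr2f2, switch on Prox1 in veins of the embryo, and the homeobox factor PROX1 then installs and maintains the lymphatic programme. LYVE1, a hyaluronan receptor, and podoplanin, the mucin-like protein encoded by Pdpn, mark the surface of lymphatic capillaries. Reelin and multimerin 1, encoded by Reln and Mmrn1, are large secreted glycoproteins made by LECs. Several of these genes are also known from other cells: Lyve1 from some macrophages, Mmrn1 from platelets, Reln from neurons, and Pdpn and Nr2f2 from fibroblasts and other mesenchymal cells.

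The 7 genes lie on 6 chromosomes of mouse build GRCm38 (mm10), and GENCODE vM21 lists each as protein coding. Prox1 spans chr1:190118035-190170714 (minus strand), Sox18 chr2:181669836-181671640 (minus), and Nr2f2 chr7:70351944-70366735 (minus). Lyve1 spans chr7:110850607-110863239 (minus), Pdpn chr4:143267431-143299564 (minus), Reln chr5:21884454-22344702 (minus), and Mmrn1 chr6:60924976-60989378 (plus). Some overlap genes on the opposite strand: Prox1 overlaps Prox1os and Gm28172, Reln overlaps Gm10475 and Gm16110 among others, and Nr2f2 overlaps B130024G19Rik, which had 1868 reads over the 18 libraries. Whether the counting used strand was not stated, so reads of such partners cannot be told apart.

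RefSeq promoters of build GRCm38.p6, 250 bases before to 50 after a gene's start, were found for 5 of the 7 genes. Sox18 and Lyve1 are named only. For Mmrn1 the RefSeq start lay 19341 bases inside the GENCODE span given above, whose first base belongs to a retained-intron transcript, and 159 bases before the nearest GENCODE start of a coding transcript. For the windows of the other 4 genes that last distance was 116 bases or less. The windows are shown for 3 genes that were far higher in LECs (Prox1, Reln and Mmrn1) and for Pdpn, which was present in both cell types. Capitals mark matches, on either strand, to 6 short motifs. These are AACAAT, the core of sites for SOX factors, AGGTCA, the half-site of nuclear receptors, CCGGAA, the core of sites for ETS factors, GTAAACA, a forkhead motif, AGATAA, a motif of GATA factors, and TATAAA, the box near some start sites. No 2 matches overlapped.
Prox1 (first of 2 windows, chr1:190170778-190171077, minus strand): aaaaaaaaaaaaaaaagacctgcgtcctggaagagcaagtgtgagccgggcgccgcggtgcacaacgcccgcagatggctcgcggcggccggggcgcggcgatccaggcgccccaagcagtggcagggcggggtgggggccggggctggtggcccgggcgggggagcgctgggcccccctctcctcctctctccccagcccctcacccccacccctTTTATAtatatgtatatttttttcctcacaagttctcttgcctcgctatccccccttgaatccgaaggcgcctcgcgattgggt
Reln (chr5:22344656-22344955, minus strand): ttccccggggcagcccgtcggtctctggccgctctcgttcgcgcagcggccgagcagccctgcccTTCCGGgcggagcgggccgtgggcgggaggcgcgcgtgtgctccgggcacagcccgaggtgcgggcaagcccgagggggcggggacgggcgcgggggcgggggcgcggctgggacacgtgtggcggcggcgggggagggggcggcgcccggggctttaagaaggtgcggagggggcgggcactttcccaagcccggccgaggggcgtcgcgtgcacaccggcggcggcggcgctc
Mmrn1 (chr6:60944067-60944366, plus strand): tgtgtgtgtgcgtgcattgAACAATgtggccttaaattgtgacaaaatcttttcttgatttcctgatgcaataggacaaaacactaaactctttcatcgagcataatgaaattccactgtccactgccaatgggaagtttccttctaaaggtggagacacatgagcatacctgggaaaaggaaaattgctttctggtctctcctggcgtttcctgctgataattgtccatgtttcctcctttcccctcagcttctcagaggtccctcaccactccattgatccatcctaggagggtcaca
Pdpn (chr4:143299515-143299814, minus strand): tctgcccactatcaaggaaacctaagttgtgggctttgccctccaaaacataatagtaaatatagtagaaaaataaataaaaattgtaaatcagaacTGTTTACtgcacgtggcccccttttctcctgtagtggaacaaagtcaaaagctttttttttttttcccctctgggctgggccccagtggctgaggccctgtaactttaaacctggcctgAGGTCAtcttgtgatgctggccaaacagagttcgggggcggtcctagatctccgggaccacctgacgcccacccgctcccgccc

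The windows of the 3 genes far higher in LECs differed in base composition. The Reln window had a GC content of 80.7% and 47 CpG pairs, an observed to expected CpG ratio of 1.01, above that of 94.3% of the 32851 windows. The Prox1 window had 64.3% GC and 25 CpG pairs, a ratio of 0.807. The Mmrn1 window had 44.3% GC and 3 CpG pairs, a ratio of 0.206, below the median of 0.384 over all windows. Pdpn lay close to that median, with 7 CpG pairs and a ratio of 0.399. No motif was held by more than 1 of the 5 genes. TATAAA was found in the first Prox1 window and in 13.6% of all windows, CCGGAA in Reln and in 14.9%, and AACAAT in Mmrn1 and in 10.7%. Pdpn held AGGTCA and GTAAACA, which 16.3% and 3.65% of all windows hold. The window of Nr2f2 and the second window of Prox1 held none of the 6 motifs, and AGATAA, found in 11.2% of all windows, was in none of the members' windows. A match is a description of letters, not a bound site.

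The first question was which of the 7 genes separated LECs from stromal cells. In WT, 6 of the 7 were higher in LECs by edgeR's quasi-likelihood test with Benjamini-Hochberg adjustment (adjusted p under 0.05), where 10.3% of the 12203 genes tested were called higher and 12.3% lower. The same 6 were higher in the KO libraries, where 9.11% of 12758 genes were. Pdpn was the exception in both. The 6 fall into 2 kinds: Prox1, Sox18, Lyve1, Reln and Mmrn1 were low in IntSCs, with Prox1 and Sox18 at 7 reads or fewer in every library and Lyve1 and Reln reaching 159 and 103 reads in WT IntSC 3, whereas Nr2f2 was abundant in both cell types. For these 6 genes every LEC library lay above every IntSC library of its genotype, as did 9.76% of all genes tested in WT and 12.1% in KO.

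**Figure D1:**
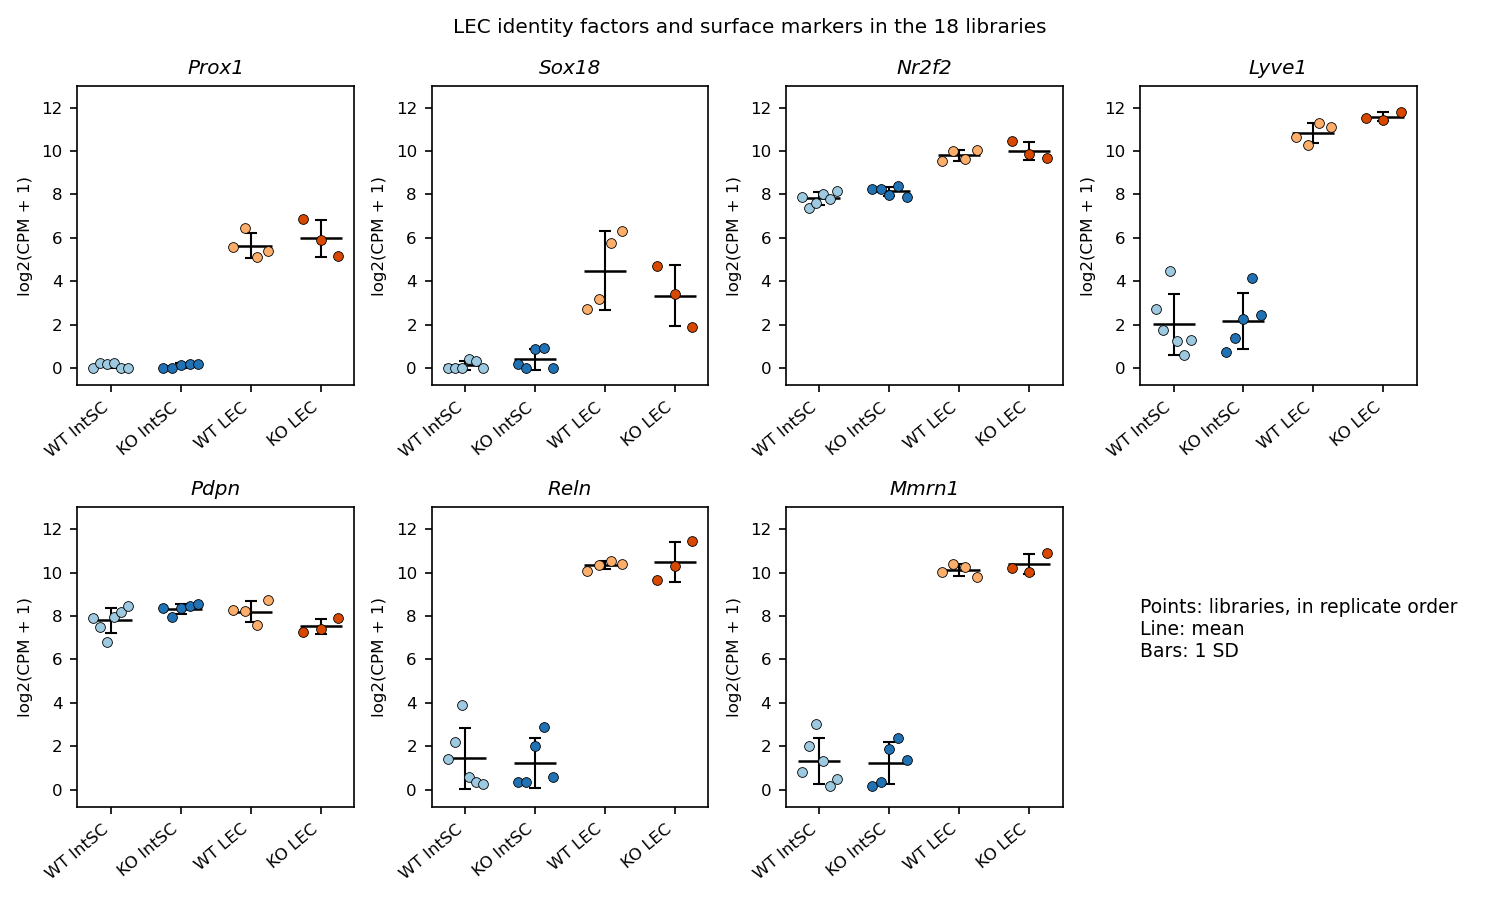
Values of the 7 genes in each library as log2(CPM + 1), by group, with a line at the group mean and bars of 1 SD. Prox1 and Sox18 sit near the bottom in all 11 IntSC libraries, Lyve1, Reln and Mmrn1 are low there but stand out in WT IntSC 3 and KO IntSC 4, Nr2f2 is high in all 18 libraries and higher in LECs, and Pdpn overlaps between WT IntSCs and WT LECs.

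Prox1, the homeobox factor that defines lymphatic identity, was at 47.4, 87.1, 33.3 and 41.1 CPM in WT LEC 1 to 4 and at 117, 58.7 and 34.7 CPM in KO LEC 1 to 3. In IntSCs it had 3 reads in all 6 WT libraries together and 3 in all 5 KO libraries together, with at most 1 read in a library. Scaled to depth, the pooled ratio of LECs to IntSCs was 644 in WT (95% exact interval 220 to 3126, counting error only) and 858 in KO (293 to 4163). The fitted log2 fold change was 9.11 ± 0.83 in WT (SE, adjusted p = 1.08e-06) and 9.46 ± 0.93 in KO (adjusted p = 5.72e-05), and 8.85 in KO without KO LEC 1, the library with the most Prox1. In each genotype LECs were above IntSCs, and the LEC groups of the genotypes overlapped.

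Sox18, the factor upstream of Prox1 in the embryo, was the least even of the 7 genes among LECs. It was at 5.51 and 8.12 CPM in WT LEC 1 and 2 and at 53.6 and 77.4 CPM in WT LEC 3 and 4, a 14.0-fold span within a group. KO LEC 1 to 3 were at 24.8, 9.73 and 2.72 CPM. The WT libraries thus formed a low and a high pair. KO LEC 1 and 2 lay between these pairs, and KO LEC 3 lay below both. IntSCs had 4 reads in WT and 14 in KO, of which 13 were in KO IntSC 3 and 4, so the pooled ratio was 361 (141 to 1326) in WT and 32.1 (18.8 to 59.6) in KO. In WT the log2 fold change was 8.26 ± 1.23 (adjusted p = 1.51e-04), 7.58 without WT LEC 4 and 8.93 without WT IntSC 4. In KO it was 4.94 ± 1.60 (adjusted p = 0.0440), and this call was lost without any 1 of KO IntSC 1, 2, 3 or 5 or KO LEC 1 or 2 (adjusted p from 0.0502 to 0.134), the value falling to 3.92 without KO LEC 1.

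Nr2f2, the nuclear receptor of veins and lymphatics, was at 757, 1027, 785 and 1064 CPM in the WT LECs and at 1425, 935 and 807 CPM in the KO LECs. In WT IntSCs it ranged from 166 to 289 CPM with a median of 230 CPM, and KO IntSC 1 to 5 were at 305, 300, 255, 338 and 235 CPM. Nr2f2 was therefore a strongly used gene in stromal cells as well, at 18.2% to 31.9% of the LEC mean in WT and 22.2% to 32.0% in KO. The difference was 1.98 ± 0.21 on the log2 scale in WT (adjusted p = 4.25e-06) and 1.82 ± 0.22 in KO (adjusted p = 2.60e-04), with pooled ratios of 3.99 and 3.65. Its error was the smallest of the 7 genes in both genotypes.

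Lyve1, the hyaluronan receptor, was at 1607, 1238, 2536 and 2212 CPM in the WT LECs and at 2959, 2778 and 3570 CPM in the KO LECs. WT IntSCs ranged from 0.519 to 21.4 CPM with a median of 1.91 CPM, and the KO IntSCs were at 0.653, 1.61, 3.81, 16.6 and 4.38 CPM. LECs exceeded IntSCs by 8.42 ± 0.88 on the log2 scale in WT (adjusted p = 8.30e-06) and by 9.11 ± 0.87 in KO (adjusted p = 4.54e-05). Because macrophages can carry LYVE1, 10 macrophage markers were summed. In LECs they reached 173 to 229 CPM in WT and 150 to 248 CPM in KO, of which Mrc1, a gene that LECs also use, made up 135 to 218 and 133 to 248 CPM. Without Mrc1 the sum was 11.5 to 43.0 CPM in WT LECs and 0.437 to 43.3 CPM in KO LECs, against 24.4 to 65.8 CPM in WT IntSCs and 34.3 to 47.4 CPM in KO IntSCs. Cd163 had no read in any LEC library, and Ptprc, the gene of CD45, stayed at or below 0.246 CPM there. The sums without Mrc1 thus came mostly from the other markers of the 10. The part of macrophages in the Lyve1 reads was not tested.

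Reln, the secreted reelin, was at 1090, 1289, 1497 and 1325 CPM in the WT LECs and at 805, 1246 and 2844 CPM in the KO LECs. WT IntSCs ranged from 0.207 to 13.9 CPM, and the KO IntSCs from 0.261 to 6.39 CPM. The log2 fold change was 8.56 ± 0.92 in WT (adjusted p = 1.21e-05) and 9.56 ± 0.99 in KO (adjusted p = 8.58e-05). The WT LECs were close together, within 1.37-fold, while the KO LECs spread over 3.53-fold. Of 9 markers of enteric neurons and glia, another known source of reelin, the sum was 19.9 to 37.6 CPM in WT LECs and 0.130 to 50.6 CPM in KO LECs. In IntSCs it was 11.7 to 37.0 CPM in WT and 8.22 to 27.0 CPM in KO. The median sum was thus higher in LECs, at 30.5 against 21.4 CPM in WT and 19.8 against 11.5 CPM in KO. Among the LEC libraries the sum was lowest in KO LEC 3, the library with the most Reln. Elavl4, Gfap and Ret had no read in either LEC group. Gfap had none in IntSCs of either genotype as well, and Ret had none in WT IntSCs. The part of such cells in the Reln reads was not tested.

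Mmrn1, the multimerin of endothelium and platelets, was at 1037, 1325, 1232 and 878 CPM in the WT LECs and at 1203, 1035 and 1926 CPM in the KO LECs. IntSCs ranged from 0.130 to 7.14 CPM in WT and from 0.131 to 4.26 CPM in KO. LECs were higher by 8.97 ± 0.74 on the log2 scale in WT (adjusted p = 8.31e-07) and by 9.55 ± 0.81 in KO (adjusted p = 2.24e-05). The platelet markers Gp9, Ppbp and Treml1 had no read in either LEC group. Ppbp and Treml1 had none in IntSCs of either genotype as well, and Gp9 had none in KO IntSCs. All 6 platelet and megakaryocyte markers together reached at most 34.3 CPM in a LEC library, and 21.2 to 60.1 CPM in IntSCs. The part of platelets in the Mmrn1 reads was not tested.

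Pdpn did not separate the cell types in WT. It was at 307, 296, 190 and 426 CPM in the WT LECs and at 236, 179, 112, 247, 291 and 350 CPM in the WT IntSCs, and the ranges overlapped. The log2 fold change was 0.36 ± 0.30 (adjusted p = 0.457). Among the KO libraries the order was the other way round. KO LECs were at 151, 170 and 241 CPM, all below the KO IntSCs at 327, 246, 327, 350 and 380 CPM. The share of all genes with every KO LEC library below every KO IntSC library was not counted. The log2 fold change was −0.88 ± 0.23 (adjusted p = 0.0192), where 16.8% of all genes were called lower in LECs. The lowest KO IntSC library and the highest KO LEC library were close together, and the call was lost without KO LEC 1 (adjusted p = 0.0583) or KO LEC 2 (adjusted p = 0.0568). Podoplanin protein was among the antigens stained for the sort of LECs, together with CD31, and how it set the gate was not stated. The transcript was not particular to these cells, since WT IntSCs held it over an overlapping range. The 4 mesothelial markers, another population rich in podoplanin, summed to at most 13.1 CPM in any library.

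**Figure D2:**
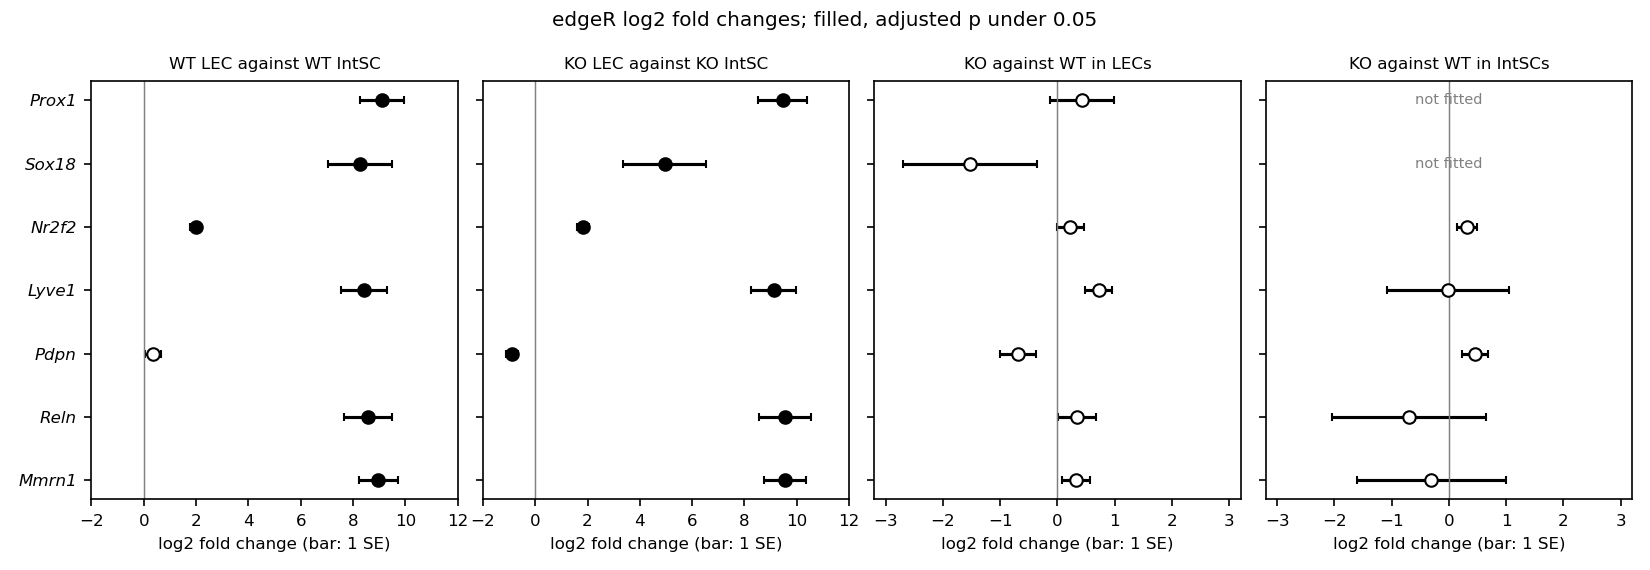
edgeR log2 fold changes with bars of 1 SE in 4 comparisons, for the 7 genes in 3 of them and for 5 genes in KO against WT IntSCs, where Prox1 and Sox18 were not fitted, filled where the adjusted p was under 0.05. In LECs against IntSCs, 5 genes lie between 4.94 and 9.56, Nr2f2 near 2 and Pdpn on either side of 0, and no point is filled in either KO against WT panel.

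The few reads of LEC genes in IntSCs were then set against the LEC level of the same genotype. Lyve1 stood at 0.0274% to 1.13% of the LEC mean over the WT IntSCs and at 0.0210% to 0.535% over the KO IntSCs. Reln stood at 0.0159% to 1.07% and 0.0160% to 0.392%, and Mmrn1 at 0.0116% to 0.639% and 0.00941% to 0.307%. The highest share of all 3 genes fell on WT IntSC 3 in WT and on KO IntSC 4 in KO. In WT IntSC 3, which had 159 reads of Lyve1, 103 of Reln and 53 of Mmrn1, the shares were 1.13%, 1.07% and 0.639%. In KO IntSC 4, with 109, 42 and 28 reads, they were 0.535%, 0.392% and 0.307%. The lowest shares of all 3 genes in KO fell on KO IntSC 1, with between 1 and 5 reads of each, while in WT those of Lyve1 and Mmrn1 fell on WT IntSC 5 and that of Reln on WT IntSC 6. Prox1 and Sox18 had too few reads in WT to rank the libraries. Prox1 had 1 read in each of WT IntSC 2, 3 and 4 (0.325%, 0.258% and 0.320%). Sox18 had 2 reads in WT IntSC 4 (0.924%) and 2 in WT IntSC 5 (0.718%), and none in WT IntSC 3. In KO, Prox1 had 1 read in each of KO IntSC 3, 4 and 5 (0.170%, 0.217% and 0.184%). Sox18 had 7 reads in KO IntSC 3 (6.71%) and 6 in KO IntSC 4 (7.36%). Flt4 and Ccl21a, 2 other LEC genes, were highest in the same libraries as Lyve1. They stood at 0.391% and 0.931% in WT IntSC 3 and at 1.80% and 0.647% in KO IntSC 4. The lead of WT IntSC 3 in Flt4 was small, with WT IntSC 4 at 0.358% and WT IntSC 1 at 0.351%. Without WT IntSC 3 the LEC to IntSC difference in WT was 9.69 for Lyve1, 10.01 for Reln and 9.89 for Mmrn1 on the log2 scale. Without KO IntSC 4 that in KO was 10.11 for Lyve1 and 10.52 for Reln, and without KO LEC 3 it was 8.90 for Reln. The source of these reads was not tested.

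**Figure D3:**
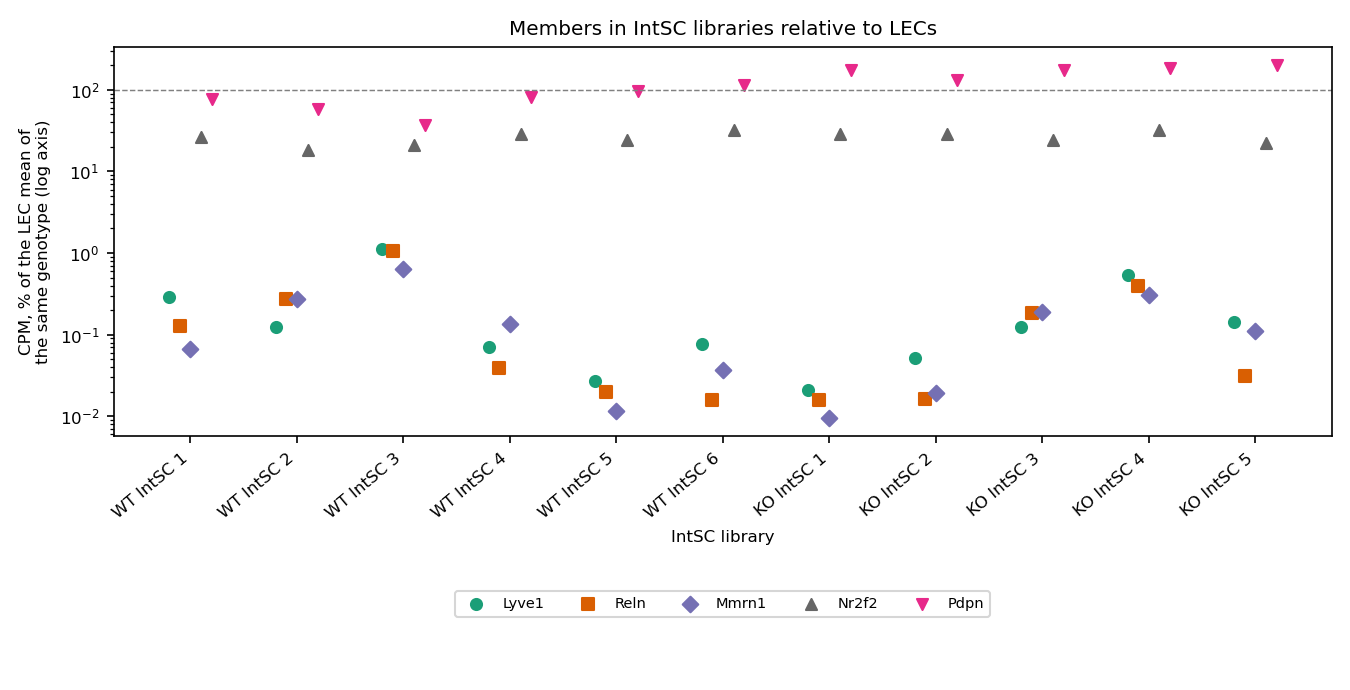
CPM of 5 genes in each IntSC library as a percentage of the LEC mean of the same genotype, on a log axis, with a dashed line at 100%. Lyve1, Reln and Mmrn1 lie between 0.00941% and 1.13% and peak together in WT IntSC 3 and KO IntSC 4, Nr2f2 lies between 18.2% and 32.0%, and Pdpn lies between 36.8% and 203%.

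The next question was whether lymphatic identity differed between KO and WT LECs. None of the 7 genes passed the edgeR test, where 0.0658% of the 10639 genes tested, 7 genes, were called. With so few calls over all genes, the lack of a call says little about the members. At an unadjusted edgeR p under 0.05 there was 1 of 7, Lyve1, where 7.87% of all genes had one. Pdpn lay at that limit (unadjusted p = 0.05001). DESeq2 called 1, also Lyve1, where it called 3.78% of 11044 genes. The mean of Lyve1 was 1898 ± 585 CPM over the 4 WT libraries and 3102 ± 415 CPM over the 3 KO libraries (SD). All 3 KO libraries lay above all 4 WT libraries, as happened in either direction for 9.81% of all genes. On the log2 scale KO exceeded WT by 0.72 ± 0.23 (edgeR adjusted p = 0.410, DESeq2 adjusted p = 0.0462), and it lay between 0.56 and 0.88 without any 1 of the LEC libraries.

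The other 6 genes overlapped between genotypes. Prox1 was at 52.2 ± 24.0 CPM in WT and 70.0 ± 42.1 CPM in KO (log2 fold change 0.43 ± 0.56, adjusted p = 0.9999), with KO LEC 1 the highest and WT LEC 3 the lowest of the 7 libraries. Sox18 was at 36.2 ± 35.3 and 12.4 ± 11.3 CPM (−1.52 ± 1.17, adjusted p = 0.965), and its change was −0.84 without WT LEC 4 and −2.52 without KO LEC 1. Nr2f2 was at 908 ± 160 and 1056 ± 326 CPM (0.23 ± 0.24, adjusted p = 0.9999). The 3 transcription factors therefore showed no difference beyond the spread of these libraries. Pdpn was at 305 ± 96.7 and 187 ± 47.2 CPM (−0.69 ± 0.32, adjusted p = 0.635), with KO LEC 1 and 2 below every WT library and KO LEC 3 above WT LEC 3. Reln was at 1300 ± 167 and 1632 ± 1072 CPM (0.34 ± 0.33, adjusted p = 0.9999), and KO held both its lowest and its highest library. Mmrn1 was at 1118 ± 200 and 1388 ± 474 CPM (0.32 ± 0.25, adjusted p = 0.965).

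The KO LECs differed among themselves in a way that crossed the genes. KO LEC 1 had the most Prox1 and Nr2f2 of all 7 LEC libraries and the least Reln and Pdpn. KO LEC 3 had the least Sox18 and the most Lyve1, Reln and Mmrn1. Measured against the WT LEC median on the log2 scale, Reln ran from −0.70 in KO LEC 1 to 1.12 in KO LEC 3, and Prox1 from 1.40 to −0.35. The stromal markers had a median log2 fold change of −1.27 between KO and WT LECs, against −0.03 over all genes. Of these markers 0 of 10 were called, where 0.0658% of all genes tested were, and WT LEC 1 held the most stromal reads. Without WT LEC 1 the change was 0.65 for Lyve1 and −0.69 for Pdpn, a gene that stromal cells share.

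**Figure D4:**
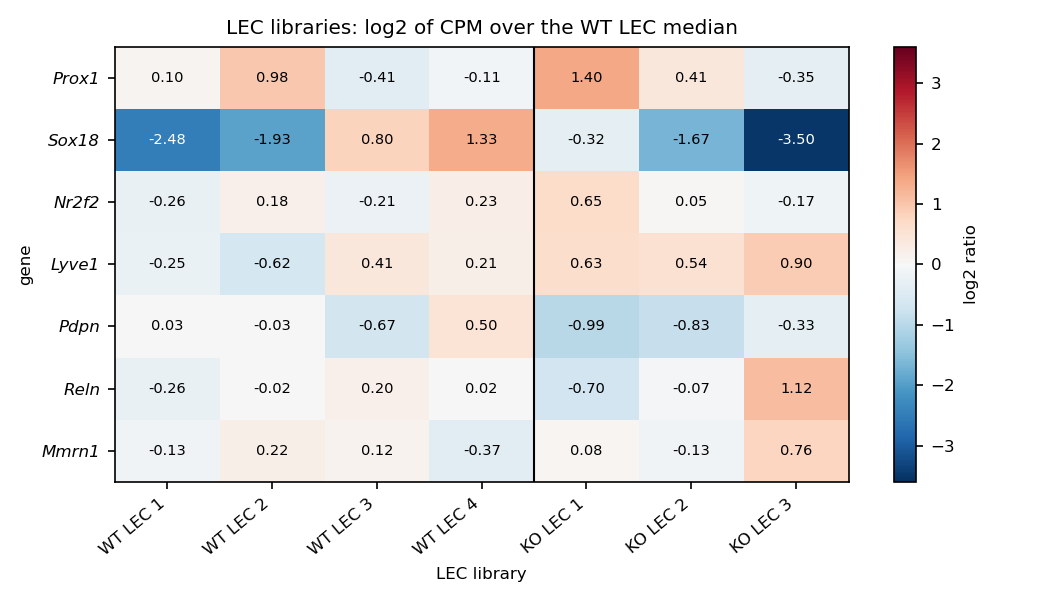
Log2 ratio of CPM in each of the 7 LEC libraries to the median of the 4 WT LEC libraries, with rows for genes, columns for libraries, and a vertical line between WT and KO. Lyve1 is above 0 in all 3 KO libraries (0.54 to 0.90) and Pdpn below 0 in all 3 (−0.99 to −0.33), while Sox18 runs from −3.50 to 1.33 over the 7 libraries.

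In IntSCs the comparison of KO with WT asked whether stromal cells changed these genes after LATS1/2 deletion. None of the 5 members tested passed, where 1.47% of the 12421 genes tested were called. No member had an unadjusted p under 0.05, against 9.81% of all genes, DESeq2 called none, against 3.15% of 14434 genes, and none had groups that did not overlap, against 2.82% of all genes. Pdpn was at 236 ± 83.3 CPM in WT and 326 ± 49.8 CPM in KO (log2 fold change 0.46 ± 0.23, adjusted p = 0.524), with KO IntSC 4 and 5 above every WT library, the former by little. Nr2f2 was at 228 ± 44.9 and 286 ± 41.4 CPM (0.32 ± 0.18, adjusted p = 0.610). These 2 members had at least 833 stromal reads in every library. Lyve1 (−0.02 ± 1.06), Reln (−0.70 ± 1.34) and Mmrn1 (−0.31 ± 1.30) had errors of over 1 on the log2 scale, and 2 libraries moved them. The value for Lyve1 was 1.24 without WT IntSC 3 and −1.06 without KO IntSC 4, that for Mmrn1 0.57 and −0.92, and that for Reln −1.72 without KO IntSC 4. Prox1 and Sox18 were too low for the fit. Their log2(CPM + 1) values were compared by exact permutation, two-sided. The KO minus WT difference was 0.0031 for Prox1 (exact p = 0.870, adjusted p = 0.870) and 0.27 for Sox18 (exact p = 0.277, adjusted p = 0.554 over the 2 tests). With a pseudocount of 0.1 these differences were 0.052 (exact p = 0.870) and 0.89 (exact p = 0.329), so the size for Sox18 depends on the pseudocount. No change of Prox1 was detectable at this depth.

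The change of genotype in LECs was set against that in IntSCs with an interaction term over all 4 groups. None of the 7 genes passed, where 1.7% of 14015 genes did, and DESeq2 called none, where it called 8.05% of 14045 genes. At an unadjusted p under 0.05 there was 1 of 7, Pdpn, where 15.8% of all genes had one. Its change was lower in LECs than in IntSCs by a log2 difference of −1.23 ± 0.41 (adjusted p = 0.124), against a median of −0.24 over all genes. Sox18 had −3.31 ± 1.90 (adjusted p = 0.432), with almost no reads behind its stromal side, and ran from −4.35 without KO LEC 1 to −2.62 without WT LEC 4. For Lyve1 the interaction was 0.71 ± 1.27 (adjusted p = 0.925), so its change in LECs was not shown to differ from that in IntSCs.

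The 16 relatives, ligands, receptors and targets of the 7 genes were examined next. In WT, 12 could be tested, of which 5 were higher and 1 lower in LECs, against 10.3% and 12.3% of all genes tested. The 5 were Flt4, the receptor of VEGF-C (8.56 ± 0.54 on the log2 scale, adjusted p = 7.16e-08), Ccl21a, the chemokine that draws dendritic cells into lymphatics (7.87 ± 0.43, adjusted p = 1.47e-08), Mmrn2, the relative of Mmrn1 in endothelium (5.08 ± 0.25, adjusted p = 3.94e-09), the integrin gene Itga9 (2.47 ± 0.25, adjusted p = 2.70e-06) and the reelin receptor Vldlr (2.03 ± 0.67, adjusted p = 0.0385). The same 5 were higher in the KO LECs, where 9.11% of all genes tested were called higher. Vldlr thus stood beside its ligand gene Reln, at 60.5 ± 23.9 CPM in WT LECs and 14.8 ± 8.45 CPM in WT IntSCs. Lrp8, the other reelin receptor, had reads in 2 of 4 WT and 1 of 3 KO LEC libraries, and the adaptor gene Dab1 had none in any LEC library. Clec1b, the platelet receptor of podoplanin, had 1 read in all 7 LEC libraries together.

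Among relatives of the transcription factors, Sox17, the arterial relative of Sox18, had no read in any KO LEC library, was at 0 to 13.7 CPM in the WT LECs, and was at 24.0 to 75.7 CPM in KO IntSCs and 5.09 to 42.6 CPM in WT IntSCs (KO against WT adjusted p = 0.174). Endothelial marker sums ran higher in some of the same libraries. The 8 blood endothelial markers summed to 312 to 732 CPM in KO IntSCs and 275 to 456 CPM in WT IntSCs, and the 14 pan-endothelial markers to 721 to 1529 CPM and 642 to 887 CPM. Both sums and Sox17 were highest in KO IntSC 2. Of the pan-endothelial markers 12 of 14 had a log2 fold change above 0 between KO and WT IntSCs, with 0 called. Of the blood endothelial ones 4 of 8 did, with 1 called higher, where 1.47% of all genes tested were called. Their part in the level of Sox17 was not tested. Sox17 was called lower in KO LECs than in KO IntSCs (adjusted p = 1.64e-04), as well as in the interaction (adjusted p = 0.0292). No fold is given because the KO LECs were at 0. Nr2f1, the closest relative of Nr2f2, did not differ between LECs and IntSCs beyond its error (0.18 ± 0.41 in WT, adjusted p = 0.822). Prox2 had no read in KO LECs and at most 0.696 CPM in a WT LEC library. Fgfr3, a known PROX1 target in LECs, was lower in WT LECs, where it had 3 reads, than in WT IntSCs at 11.9 ± 5.14 CPM (adjusted p = 0.00270), and all of its 363 reads in KO LECs came from 1 library. Between KO and WT LECs 0 of the 11 relatives tested were called, where 0.0658% of all genes tested were. With so few calls over all genes, this 0 says little about the relatives. Between KO and WT IntSCs 1 of 12 was called, where 1.47% of all genes tested were. This was Cdkn1c, the cell cycle inhibitor gene p57, which rose from 14.2 ± 6.03 to 44.1 ± 11.8 CPM (log2 fold change 1.63 ± 0.35, adjusted p = 0.0196).

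Likeness of pattern was measured as Pearson's r of log2(CPM + 1) over the 18 libraries among 10721 other genes, as a description. These libraries share 2 cell types, so any LEC gene scores high. The genes most like Prox1 were Pkd2l1 (r = 0.992), D5Ertd615e (0.991) and Tnfaip8l3 (0.990). Lyve1 was followed most closely by Lcn2 (0.990), Sh3gl3 (0.986) and Adgrg3 (0.986), Reln by Adgrg3 (0.990), Ccl21c (0.989) and Gm1987 (0.987), and Mmrn1 by Ccl21c (0.992), Adgrg3 (0.991) and Sh3gl3 (0.990). Ccl21c and Gm1987 belong to the Ccl21 family of near-identical copies, so their counts may share reads. For Nr2f2 they were Egfl7 (0.964), Pkd2l1 (0.964) and Flt4 (0.964). Sox18 stood apart with Mlf2 (0.959), Elovl5 (0.937) and Agfg1 (0.929). Pdpn had no gene above 0.793 (Zmym6, then Usp27x at 0.792 and Iba57 at 0.767). Among the members, Reln and Mmrn1 were the most alike pair (r = 0.995), and Pdpn had r between −0.216 and −0.033 with each of the other 6.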

How the data were processed

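For each library the authors deposited raw counts, whole numbers of reads per gene symbol without normalisation. Per the study's methods reads were mapped with TopHat and handled with Cufflinks, while the submitters' processing notes name Bowtie2, edgeR and build mm10. The counting program, its strand setting and the annotation were not given in the sources used here. Each table held 23282 rows, and 35 symbols on more than 1 row, none a member, were summed. Reads at 3′ ends stand for transcripts and were not divided by length. Sample titles gave the groups and replicate numbers. No 2 libraries of a group agreed within sampling noise (chi-square per degree of freedom at least 31.4). The labels do not name the animal of a library, so p-values measure the spread between these libraries. Per the paper, the data of each cell type were pooled from more than 1 independent experiment. The labels do not tie a library to an experiment, and the fits did not model experiments.

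The test was that of edgeR 4.0.16 under R 4.3.3 (TMM, filterByExpr, robust quasi-likelihood fit, Benjamini-Hochberg adjustment over all genes tested, threshold 0.05), with only the compared groups in a fit and all 4 groups for the interaction. Standard errors come from the F statistic. Members under the filter were tested by exact permutation with scipy 1.17.1 (pseudocount 1). The procedure was tested on simulated counts. Alternatives were DESeq2 1.42.0, factors by RLE or upper quartile, every gene with a read kept, only genes with a mean count of 10 or more kept, all 4 groups in one fit, Rn45s removed, the replicate number as a block, plain CPM, a pseudocount of 0.1 and each library left out. Leaving out the IntSC libraries richest in Lyve1 was chosen after seeing the data. The genes named were all 7 members, 16 relatives and partners, the 3 genes of most similar pattern per member among those with a mean of at least 5 CPM, and the marker lists as counts. The members and lists were chosen with earlier results of these data known. The 3 reads, the limit that a count of 0 allows, were 2.84e-05% to 5.60e-05% of a library, and intervals cover counting error only, because PCR copies are not independent molecules.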

Additional observations from a re-analysis of the deposited data

Results flagged for a closer look

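Of 21 groups of 4 to 6 libraries examined (7 genes in WT IntSCs, KO IntSCs and WT LECs), 3 held a library set well apart from the others. For normally distributed values this happens by chance in about 1 of 20 groups. The stromal reads were few and uneven, from 4 to 159 for Lyve1 in WT IntSCs, so that rate need not hold here. Lyve1 was at 21.4 CPM in WT IntSC 3, with the next WT IntSC library at 5.53 CPM. Reln was at 13.9 CPM in the same library, with the next at 3.56 CPM. Lyve1 was at 16.6 CPM in KO IntSC 4, with the next KO IntSC library at 4.38 CPM. WT IntSC 3 therefore accounted for 2 of the 3, and both libraries also held the most Mmrn1, Flt4 and Ccl21a of their groups. The lead of WT IntSC 3 in Flt4 was small, at 5.66 CPM against 5.18 CPM in WT IntSC 4. Groups of 3 libraries were not examined.

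Pdpn values lay on opposite sides of the WT mean in the 2 cell types, although neither change passed its test (adjusted p = 0.635 in LECs and 0.524 in IntSCs). All 3 KO LEC libraries lay below the WT LEC mean and all 5 KO IntSC libraries lay above the WT IntSC mean. The test of this difference gave −1.23 ± 0.41 on the log2 scale and did not pass the edgeR threshold (adjusted p = 0.124, and from 0.0723 to 0.217 without any 1 library).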

How the results depend on the processing

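The 5 counts of members called kept their value or moved within 1.5 times under every alternative run, except that DESeq2 called 1 member, Lyve1, between KO and WT LECs in place of 0. Leaving out a library gave 6 to 6 members higher in LECs in WT, 5 to 6 in KO, and 0 in the other 3 comparisons. Single members turned direction only where they had not passed: between KO and WT LECs, leaving out libraries gave −0.15 to 0.80 for Prox1, −0.046 to 0.39 for Nr2f2 and −0.33 to 0.67 for Reln. Between KO and WT IntSCs it gave −1.06 to 1.24 for Lyve1 and −0.92 to 0.57 for Mmrn1, and without both IntSC libraries richest in Lyve1 the value for Lyve1 was 0.22. For the interaction it gave −0.25 to 0.72 for Prox1, −0.46 to 0.0095 for Nr2f2, −0.57 to 1.70 for Lyve1, −0.44 to 1.97 for Reln and −0.33 to 1.16 for Mmrn1. Plain CPM kept all 28 group means within 1 SD. The cause of these shifts was not tested.

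The replicate numbers share no stated origin, and deviations of same-numbered libraries correlated at 0.0234 to 0.0448 between WT LECs and IntSCs and at −0.0612 to 0.0802 elsewhere. In that comparison 3 of 4 LEC libraries correlated best with their own number. With the replicate number as a block, Sox18 and Pdpn no longer differed between KO LECs and KO IntSCs (log2 5.96 and −0.77, adjusted p = 0.316 and 0.194). The differences there became 10.71 for Lyve1, 10.80 for Reln, 10.86 for Mmrn1 and 10.07 for Prox1, the WT difference 8.90 for Sox18, and the change of Sox18 between KO and WT LECs −0.30. For the interaction the block gave 1.46 for Prox1, 2.16 for Lyve1, 2.06 for Reln and 2.03 for Mmrn1, and 0 members were called. With the block, calls over all genes went from 2763 to 1596 in WT, from 3302 to 895 in KO, from 7 to 3 for KO against WT in LECs and from 238 to 16 for the interaction. Without the count filter Sox18 was also lost between KO LECs and KO IntSCs (log2 4.92, adjusted p = 0.0636). Calls between KO and WT LECs over all genes numbered 7, but 32 without the filter, 20 at a mean count of at least 10, 538 with all 4 groups in one fit, 417 with DESeq2 and 0 to 16 without 1 library. Those between KO and WT IntSCs numbered 183, but 27 with all 4 groups in one fit, 455 with DESeq2 and 99 to 186 without 1 library, and DESeq2 called 1130 genes for the interaction, which ranged from 161 to 461 without 1 library. Depth limits Prox1 and Sox18 in IntSCs, where a library held at most 1 and 7 reads.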
